A study of Homo sapiens with 9 samples.

Results

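The genes described here encode 10 enzymes of serine synthesis, folate one-carbon metabolism and proline synthesis, taken by their symbols from a table of 19356 genes, and all 10 were found and tested. They are the 3 enzymes of the serine pathway (PHGDH, PSAT1 and PSPH), the cytosolic folate enzymes SHMT1 and MTHFD1, the mitochondrial folate enzymes SHMT2, MTHFD1L, MTHFD2 and ALDH1L2, and the proline enzyme PYCR1. The cells were LN229, an established line grown from a human glioblastoma, and their polyadenylated RNA gave 9 libraries. WT stands for the 3 wild-type ones, and B3 and C4, with 3 each, are LN229 lines in which ARNT2, a bHLH-PAS transcription factor, was knocked out by CRISPR according to the labels. All were grown in DMEM with 5% FBS, and the study addressed how ARNT2 bears on proliferation and differentiation of these cells. The labels do not say whether B3 and C4 are each 1 clone, and they name no line with a control guide, so loss of ARNT2 and other differences between lines cannot be told apart. Nor do they give separate cultures for the libraries within a group. The p-values therefore reflect just the spread among the libraries at hand, which may be technical.

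Cells make serine from the glycolytic intermediate 3-phosphoglycerate in consecutive steps of oxidation, transamination and dephosphorylation. Serine hydroxymethyltransferases then split it into glycine and a one-carbon unit carried by folate, in mitochondria and in the cytosol, and the units are used to make purines, thymidylate and formate. Several genes of serine synthesis and of the mitochondrial folate pathway are known targets of the amino acid stress factor ATF4, and tumours often express them strongly.

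The values are log2 normalised read counts as deposited. They are scaled between libraries but not for gene length, so levels are compared between libraries for 1 gene and never between genes. Library medians lay between 10.62 and 10.65, and the 10 enzymes lay between 11.17 and 15.89 in every library. Read depth is unknown. Each change is a difference of group means on the log2 scale ± SE, from limma (n = 3 in each group), over the 16457 genes whose antilog averaged 10 or more. Called means that the p adjusted by Benjamini and Hochberg was below 0.05. In bulk RNA, fewer cells expressing a gene and less RNA per cell cannot be told apart.

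The targeted gene and the cell identity were examined first. ARNT2 was at 13.56, 13.59 and 13.58 in the WT libraries, at 11.91, 11.90 and 11.86 in B3 and at 12.22, 12.15 and 12.05 in C4, so the RNA was lower in all 6 libraries of the targeted lines. By exact permutation, two-sided, p was 0.1 for each line against WT, the smallest that 3 against 3 libraries allow. Glial and glioblastoma markers were present: S100B lay between 16.12 and 16.49, VIM between 17.83 and 18.23 and SOX2 between 12.19 and 12.50, whereas the glial filament gene GFAP was weak, at 6.61 to 6.98. Of 11 markers of other cell types, 10 had a row and 7 passed the filter, and the T-cell marker CD3E, which did not, stayed between 1.86 and 1.91. The neuronal marker SNAP25 lay between 11.20 and 11.50 and changed by -0.23 ± 0.03 in C4 and -0.14 ± 0.03 in B3. RBFOX3, the other neuronal marker listed, stayed between 3.25 and 3.34 and did not pass the filter. The fibroblast marker DCN lay between 9.77 and 10.73 and changed by -0.50 ± 0.05 in C4 and 0.28 ± 0.05 in B3. Of the endothelial markers, VWF changed by -0.41 ± 0.05 in B3 and PECAM1 by -0.23 ± 0.03 in C4. The log2 of the summed antilogs of the 10 was 12.21 to 12.27 in WT, 12.19 to 12.23 in B3 and 11.94 to 12.02 in C4, so it was lowest in the line in which most of the enzymes were lowest. SNAP25 and DCN had the highest values of the 10 and weigh most in this sum. The part of these markers in the results below was not tested.

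In C4 the serine pathway, the mitochondrial folate enzymes and PYCR1 fell together, while the cytosolic enzymes did not fall. Against WT, 9 of the 10 genes were called, 8 lower and 1 higher, where 56.2% of all tested genes were called, 28.0% lower and 28.2% higher. By at least 0.5 on the log2 scale, a size chosen after the values were seen, 7 of the 10 were lower, against 2.34% of all tested genes. The median change of the 10 genes was -0.68, against 0.0012 over all tested genes. In B3, by contrast, the 10 changes ran from -0.24 to 0.15 with a median of 0.0045. The plot of the 10 enzymes by library shows C4 below both other groups in 8 panels and above them for SHMT1. How many of all tested genes separate in this way was not counted, so no conclusion is drawn from the number of panels.

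**Figure D1:**
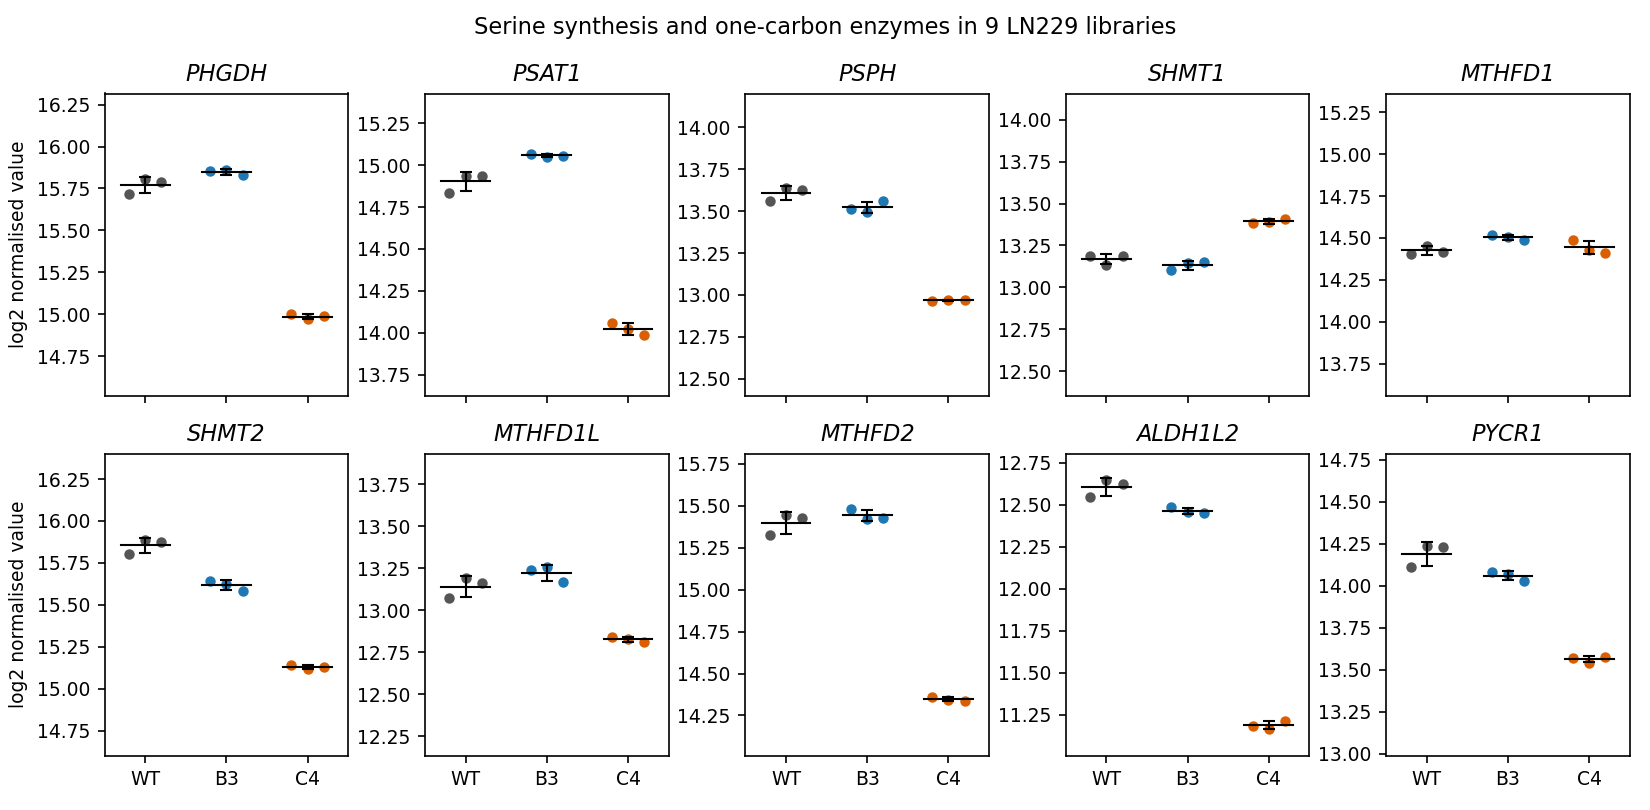
Log2 normalised values (vertical axes, all spanning the same range) of the 10 enzymes in WT, B3 and C4. Points are libraries, horizontal lines group means and bars SD (n = 3). C4 lies below both other groups for 8 enzymes, above them for SHMT1, and within the range of WT and B3 for MTHFD1. The share of all tested genes that separate in this way was not counted.

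The serine pathway begins with PHGDH (ENSG00000092621.12, chromosome 1, 119648411 to 119744226, plus strand, GRCh38), which oxidises 3-phosphoglycerate and is its committed step. Its log2 value was 15.72, 15.80 and 15.79 in WT, 15.86, 15.86 and 15.83 in B3 and 15.00, 14.97 and 14.99 in C4. No groups overlapped, with B3 slightly highest and C4 clearly lowest. PHGDH fell by 0.78 ± 0.02 in C4 against WT (limma adjusted p = 1.02e-17), to 58.1% of the WT level, and ranked 137 from the lowest of 16457 changes. In B3 it rose by 0.08 ± 0.02 (adjusted p = 0.0123), a call that was lost without WT replicate 1 (0.05, adjusted p = 0.0545).

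PSAT1 (ENSG00000135069.13, chromosome 9, 78297143 to 78330093, plus strand) encodes the aminotransferase that follows PHGDH. It was measured at 14.84, 14.94 and 14.93 in WT, 15.07, 15.05 and 15.06 in B3 and 14.06, 14.02 and 13.99 in C4. The order of the groups was that of PHGDH, again without overlap. PSAT1 fell by 0.88 ± 0.03 in C4 (adjusted p = 3.70e-18), to 54.3% of WT, and rose by 0.15 ± 0.03 in B3 (adjusted p = 3.82e-05). Between the lines, C4 held 48.8% of the B3 level.

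PSPH (ENSG00000146733.13, chromosome 7, 56011051 to 56051604, minus strand), the phosphatase that releases serine, stood at 13.56, 13.64 and 13.63 in WT, 13.51, 13.49 and 13.56 in B3, and 12.97 in each C4 library. The WT and B3 libraries overlapped, and C4 was lower than both. PSPH fell by 0.64 ± 0.03 in C4 (adjusted p = 5.54e-16), to 64.2% of WT. In B3 it changed by -0.08 ± 0.03 (adjusted p = 0.00771), beside a median of -0.12 over the 14 tested genes within 2.5 Mb, 9 of which were called lower, and the call was lost when every library was scaled to the same total (adjusted p = 0.0937). The part of this stretch of chromosome 7 in the PSPH change in B3 was not tested. In C4 against WT the same 14 neighbours had a median of 0.04, opposite in sign to PSPH.

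Among the mitochondrial folate enzymes, SHMT2 converts serine to glycine and loads the one-carbon unit onto folate (ENSG00000182199.10, chromosome 12, 57229327 to 57234935, plus strand). Its values were 15.80, 15.89 and 15.87 in WT, 15.65, 15.62 and 15.59 in B3 and 15.14, 15.12 and 15.13 in C4. The groups formed 3 separate steps, from WT down to C4. SHMT2 fell by 0.73 ± 0.03 in C4 (adjusted p = 6.13e-17), to 60.5% of WT, and by 0.24 ± 0.03 in B3 (adjusted p = 6.22e-08), to 84.9%. Around SHMT2, 84 tested genes within 2.5 Mb had a median change of -0.14 in B3, with 55 called lower and 4 higher, and of 0.045 in C4. The fall of SHMT2 in B3 therefore stood beside a downward shift of its neighbourhood, and its fall in C4 did not. Whether the B3 shift of the region had a part in the SHMT2 value was not tested.

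MTHFD2 (ENSG00000065911.11, chromosome 2, 74198562 to 74217565, plus strand), a mitochondrial methylenetetrahydrofolate dehydrogenase and cyclohydrolase, was at 15.32, 15.45 and 15.43 in WT, 15.48, 15.42 and 15.43 in B3 and 14.36, 14.34 and 14.34 in C4. WT and B3 overlapped, and every C4 library lay about 1 log2 unit lower. The C4 change was -1.05 ± 0.03 (adjusted p = 2.68e-19), which left 48.2% of WT and ranked 51 from the lowest. In B3 the change was 0.05, with a 95% confidence interval from -0.01 to 0.10 (adjusted p = 0.181), and it was called only when every library was scaled to the same total (adjusted p = 0.0180). Of the mitochondrial paralogue MTHFD2L, C4 held less than WT as well, at -0.15 ± 0.04 (adjusted p = 0.00494), beside a median of -0.13 over its 25 neighbours within 2.5 Mb, 14 of which were called lower.

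ALDH1L2 (ENSG00000136010.13, chromosome 12, 105019784 to 105084577, minus strand), the mitochondrial formyltetrahydrofolate dehydrogenase, which releases the one-carbon unit as carbon dioxide, had the largest change of the 10 in C4. Its values were 12.54, 12.65 and 12.63 in WT, 12.49, 12.46 and 12.45 in B3 and 11.18, 11.17 and 11.21 in C4. It fell by 1.42 ± 0.03 in C4 (adjusted p = 3.55e-21), a 2.67-fold lower level that ranked 25 of 16457 from the lowest, and by 0.14 ± 0.03 in B3 (adjusted p = 0.000356). The cytosolic paralogue ALDH1L1 stayed between 1.29 and 1.32 in all libraries, below the filter, and was not tested.

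MTHFD1L (ENSG00000120254.15, chromosome 6, 150865549 to 151101887, plus strand), which makes formate in mitochondria, changed least of the 4. It was at 13.07, 13.19 and 13.16 in WT, 13.24, 13.26 and 13.17 in B3 and 12.84, 12.83 and 12.81 in C4. C4 was again below all other libraries, and WT and B3 overlapped. MTHFD1L fell by 0.31 ± 0.03 in C4 (adjusted p = 2.52e-09), to 80.4% of WT. Its rise of 0.08 ± 0.03 in B3 (adjusted p = 0.0232) was lost without WT replicate 1, B3 replicate 1 or B3 replicate 2, with adjusted p up to 0.154.

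The cytosolic enzymes behaved differently. SHMT1 (ENSG00000176974.19, chromosome 17, 18327860 to 18363563, minus strand), the cytosolic counterpart of SHMT2, was at 13.19, 13.13 and 13.19 in WT, 13.10, 13.15 and 13.15 in B3 and 13.38, 13.39 and 13.41 in C4. It rose by 0.22 ± 0.02 in C4 (adjusted p = 3.20e-08), to 117% of WT, and C4 lay above every other library. In B3 the change was -0.04, with a 95% confidence interval from -0.09 to 0.01 (adjusted p = 0.220). SMCR8, which overlaps SHMT1 on the opposite strand, was 0.13 higher in C4 (adjusted p = 5.80e-05), and since strand-specific counting is not stated, reads of the overlap cannot be assigned to either gene.

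MTHFD1 (ENSG00000100714.15, chromosome 14, 64388031 to 64463457, plus strand) encodes the cytosolic enzyme that interconverts folate-bound one-carbon units by its dehydrogenase, cyclohydrolase and formate-ligase activities. It was at 14.41, 14.45 and 14.42 in WT, 14.52, 14.50 and 14.49 in B3 and 14.49, 14.43 and 14.41 in C4. Of the 10 genes, MTHFD1 alone was not called in C4 against WT: the change was 0.02, with a 95% confidence interval from -0.03 to 0.07 (adjusted p = 0.573). In B3 it rose by 0.08 ± 0.02 (adjusted p = 0.0101). Neither cytosolic enzyme was thus lower in C4 than in WT, whereas all 4 mitochondrial enzymes were.

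PYCR1 (ENSG00000183010.16, chromosome 17, 81932384 to 81942412, minus strand), which reduces pyrroline-5-carboxylate to proline in mitochondria, was at 14.11, 14.23 and 14.23 in WT, 14.08, 14.07 and 14.03 in B3 and 13.57, 13.54 and 13.58 in C4. The groups did not overlap. PYCR1 fell by 0.63 ± 0.03 in C4 (adjusted p = 5.14e-15), to 64.7% of WT, and by 0.13 ± 0.03 in B3 (adjusted p = 0.00045). Its profile over the 9 libraries was closest to that of PSPH, as described further on.

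**Figure D2:**
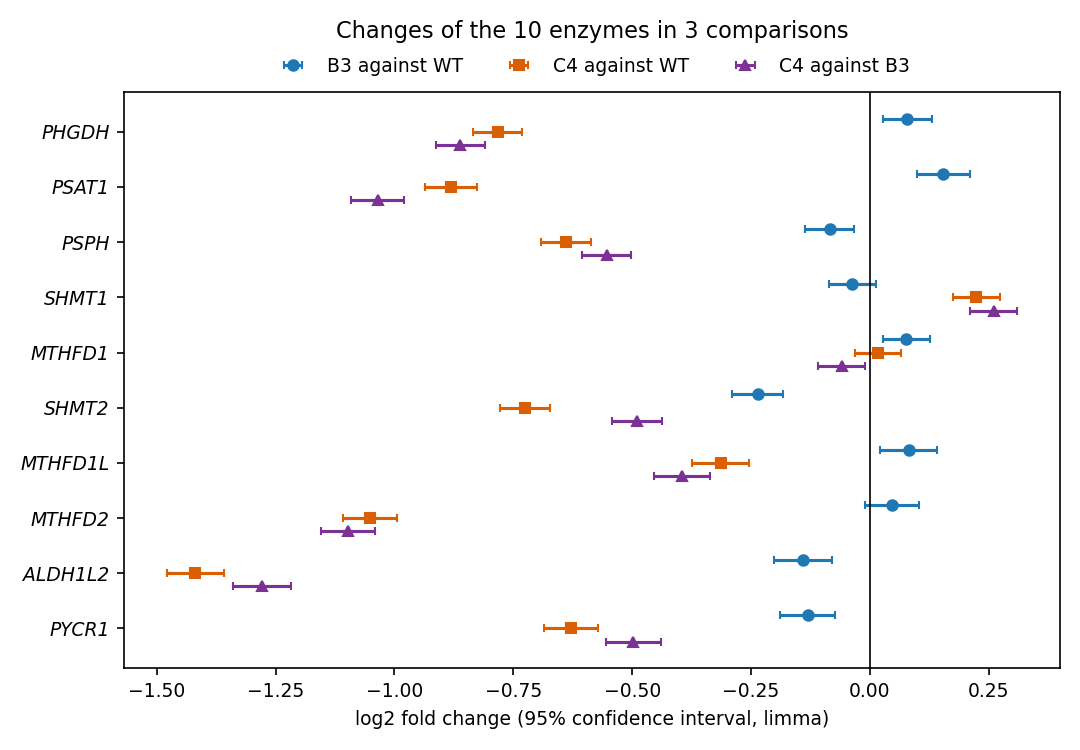
Log2 fold change (horizontal axis) of each enzyme in B3 against WT (circles), C4 against WT (squares) and C4 against B3 (triangles), with 95% confidence intervals from limma. The B3 changes stay between -0.24 and 0.15, while 8 of the 10 enzymes lie to the left in both comparisons of C4.

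In B3 against WT, 8 of the 10 genes were called, where 47.9% of all tested genes were, 4 higher (23.2% of all genes) and 4 lower (24.6%). PHGDH, PSAT1, MTHFD1 and MTHFD1L were the higher ones and PSPH, SHMT2, ALDH1L2 and PYCR1 the lower ones, and none reached 0.25 on the log2 scale. Within the serine pathway the first 2 enzymes rose and the third fell. One library weighed on these small values. WT replicate 1 was the lowest WT library for 9 of the 10 genes, against 38.8% of all tested genes. Without it 6 of the 10 were called, where 7653 of 16458 tested genes were. With every library at the same total, 64.2% of the genes called in B3 were higher, against 48.5% with the deposited scaling, and in C4 61.5% against 50.2%.

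C4 and B3 were also compared directly, which tests whether their changes against WT differed. All 10 genes were called, where 56.4% of all genes were, 9 lower and 1 higher (27.8% and 28.6% of all genes). Lower by at least 0.5 were PHGDH, PSAT1, PSPH, MTHFD2 and ALDH1L2, against 1.54% of all genes. In this comparison the 14 tested genes within 2.5 Mb of PSPH had a median of 0.185, with 13 called higher and 0 lower. The 84 around SHMT2 had a median of 0.18, with 59 called higher and 10 lower. The part of these regions was not tested. ALDH1L2 fell by 1.28 ± 0.03 (adjusted p = 1.80e-20), MTHFD2 by 1.10 ± 0.03 (1.25e-19) and PSAT1 by 1.04 ± 0.03 (1.89e-19), ranking 16, 22 and 25 from the lowest change. SHMT1 was the gene that rose, by 0.26 ± 0.02 (adjusted p = 2.30e-09). The MTHFD1 difference of -0.06 ± 0.02 (adjusted p = 0.0358) was lost without B3 replicate 1 or 2 or C4 replicate 2 or 3 and with the replicate block, with adjusted p up to 0.174. The comparisons share libraries and are not independent of each other.

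The enzymes were then set against their paralogues within each library, a difference of log2 values from which gene length and scaling between libraries drop out when groups are compared. SHMT2 minus SHMT1 was 2.61, 2.75 and 2.69 in WT, 2.54, 2.48 and 2.44 in B3 and 1.76, 1.73 and 1.72 in C4. The balance between the mitochondrial and the cytosolic form was thus lower by 0.95 ± 0.04 (SE) in C4 than in WT, with no overlap. MTHFD1L minus MTHFD1 was lower by 0.33 ± 0.03 in C4 and differed by 0.0050 in B3. MTHFD2 minus MTHFD1 changed by -1.07 ± 0.03 in C4 and by -0.03 ± 0.03 in B3. Against its own mitochondrial paralogue MTHFD2L, MTHFD2 changed by -0.90 ± 0.04 in C4 and -0.11 ± 0.03 in B3. For each of the 4 ratios C4 did not overlap WT or B3, and the exact permutation p of these comparisons was 0.1, the smallest this test can give with 3 against 3 libraries, or 0.12 adjusted over the 12 tests. B3 and WT overlapped for the 2 ratios to MTHFD1 (exact permutation p = 0.9 for MTHFD1L and 0.3 for MTHFD2).

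**Figure D3:**
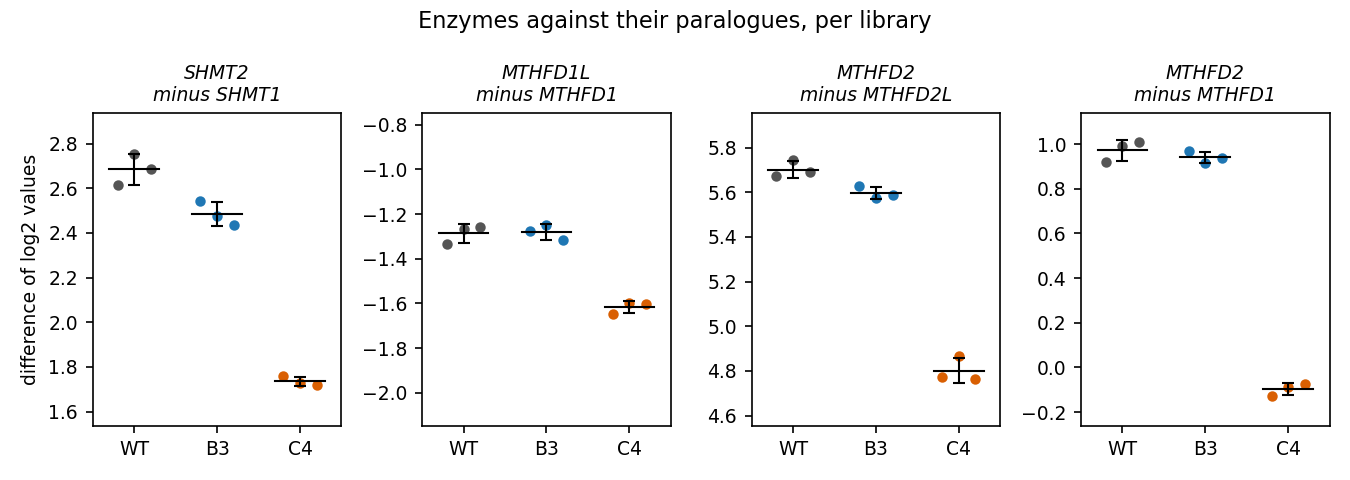
Difference of log2 values between an enzyme and its paralogue (vertical axes, all spanning the same range) in each library of WT, B3 and C4. Lines are group means and bars SD (n = 3). The C4 libraries lie lowest in every panel.

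The RefSeq promoter table (GRCh38.p14) held windows for 6 of the 10 genes, 9 windows in all. The 250 bases before the start are printed for the strongly lowered PSAT1 and MTHFD2, and for the mitochondrial MTHFD1L, which fell in C4, beside its cytosolic relative MTHFD1, which was not called there. They are read 5′ to 3′ on the gene's strand. Capitals mark TGATGNAA, the amino acid response element bound by ATF4 with its partners, and the E-box CACGTG, both searched on either strand.
PSAT1, chr9:78296875-78297124, plus strand: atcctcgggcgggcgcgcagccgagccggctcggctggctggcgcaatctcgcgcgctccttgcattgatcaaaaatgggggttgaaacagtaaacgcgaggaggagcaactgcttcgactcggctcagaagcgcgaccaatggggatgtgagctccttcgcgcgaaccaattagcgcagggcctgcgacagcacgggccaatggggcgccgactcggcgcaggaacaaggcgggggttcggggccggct
MTHFD2, chr2:74198365-74198614, plus strand: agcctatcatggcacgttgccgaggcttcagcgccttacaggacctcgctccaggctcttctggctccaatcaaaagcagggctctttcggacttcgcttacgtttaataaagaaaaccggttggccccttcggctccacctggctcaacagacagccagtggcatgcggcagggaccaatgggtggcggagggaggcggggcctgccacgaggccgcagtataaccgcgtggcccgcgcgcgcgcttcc
MTHFD1L, chr6:150866236-150866485, plus strand: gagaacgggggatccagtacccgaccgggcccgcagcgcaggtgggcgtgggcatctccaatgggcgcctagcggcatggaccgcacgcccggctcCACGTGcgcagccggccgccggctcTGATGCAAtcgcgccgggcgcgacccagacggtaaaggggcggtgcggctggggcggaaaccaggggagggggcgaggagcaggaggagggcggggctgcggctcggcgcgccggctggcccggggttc
MTHFD1, chr14:64388103-64388352, plus strand: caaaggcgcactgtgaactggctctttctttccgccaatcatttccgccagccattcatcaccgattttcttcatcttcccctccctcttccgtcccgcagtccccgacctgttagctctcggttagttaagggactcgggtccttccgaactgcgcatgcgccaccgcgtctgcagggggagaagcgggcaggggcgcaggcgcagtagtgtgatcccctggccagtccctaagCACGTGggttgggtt

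MTHFD1L was the 1 gene of the 6 with TGATGNAA, which stood in 2 of the 9 windows and in 3.14% of all 35116 windows of this length in the table. CACGTG was found for MTHFD1L and MTHFD1, in 3 of the 9 windows and in 6.34% of all windows. The dioxin response core GCGTG was in 4 of the 9 windows, of MTHFD1L and MTHFD2, and in 32.2% of all windows. The hypoxia response core ACGTG, which is contained in CACGTG, was in 4 of the 9 windows, of MTHFD1, MTHFD1L and MTHFD2, and in 18.5% of all windows. Of the 4 MTHFD1L windows 3 overlap each other, so 1 site can be counted more than once: the TGATGNAA matches of its 2 windows are the same bases, and so are its CACGTG matches. The counts over the 9 windows are therefore not counts of separate sites. No printed letters of PSAT1 or MTHFD2 matched TGATGNAA or CACGTG, which says only that these letters are not in this window.

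The positions of the genes and the changes around them were listed as well. The 10 genes lie on 8 chromosomes. In C4 against WT the median change of the tested genes within 2.5 Mb lay between -0.039 and 0.045 for each of them. The 9 genes called in C4 had changes of at least 0.22 in size. A median can hide uneven calls. Around MTHFD1L 12 of 27 neighbours were called lower and 5 higher, and around MTHFD1 2 of 22 lower and 8 higher. The part of these regions in the C4 changes was not tested. Some members overlap other genes or have pseudogene copies as annotated, so reads could be shared, which was not examined. GENCODE 29 names 14 pseudogenes after them, 7 of MTHFD2 and 4 of PSAT1. Of these, MTHFD2P1 has a row, at 5.50 to 5.76, with a change of -0.19 in C4 (adjusted p = 8.11e-05). SLC4A5 (10.03 to 10.73) overlaps MTHFD2 on the opposite strand and changed by -0.56 in C4 (limma adjusted p = 1.09e-10). NDUFA4L2 (7.34 to 7.95) overlaps SHMT2 on the opposite strand and changed by -0.49 in C4 (adjusted p = 2.54e-08). C12orf45 (10.48 to 10.78) overlaps ALDH1L2 on the opposite strand and changed by -0.12 in C4 (adjusted p = 0.0325). MYADML2 (5.89 to 6.03) overlaps PYCR1 on the same strand and was not called in C4 (0.01, adjusted p = 0.868). Reads of such overlaps and copies cannot be told apart here, so these values are uncertain to that extent.

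Likeness between genes was measured as the root mean square difference of their 9 log2 values, each gene centred on its WT mean. The most alike members were PSPH and PYCR1 (0.04), PHGDH and PSAT1 (0.07) and PYCR1 and SHMT2 (0.08). Among 12713 other genes, counting genes whose antilog averaged 50 or more and leaving out clone-type and provisional names, those closest to PHGDH were CHMP1B2P, SERTAD4 and DPYSL4 (0.04 to 0.05), and those closest to PSAT1 were FRMD4B, NGEF and CKAP2L (0.04 to 0.06). PSPH was closest to the ribosomal protein gene RPL8, the glutamine and serine transporter gene SLC1A5 and the stress-induced mTORC1 inhibitor gene DDIT4 (each 0.03). The tested genes within 2.5 Mb of RPL8 had a median of -0.26 in C4. SHMT2 was closest to ARHGEF2, SNHG8 and IL4R (each 0.04), and MTHFD2 to SYTL5, ADAMTS9 and NKILA (each 0.08). The genes closest to MTHFD2 thus lay farther from it than those closest to the serine enzymes did from these. The measure depends on the size of the changes, and MTHFD2 fell more in C4 than the serine enzymes. No conclusion about its profile is therefore drawn from the distance.

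Other genes of the pathway moved less. Of 13 further folate cycle and folate transport genes tested, 3 were called higher and 5 lower in C4, with a median of -0.03, and 4 higher and none lower in B3, with a median of 0.04. The 8 called in C4 stand against 56.2% of all tested genes, a share near their own, and the 4 called in B3 against 47.9%, which is above theirs. SLC25A32, the carrier that brings folate into mitochondria, fell by 0.44 ± 0.03 in C4 (adjusted p = 1.60e-12), beside a median of -0.21 over 18 neighbours within 2.5 Mb, 12 of which were called lower. The lysosomal folate hydrolase gene GGH changed by -0.29 ± 0.04, with neighbours at -0.13. The part of these regions was not tested. The thymidylate synthase gene TYMS rose by 0.25 ± 0.04 in B3 (adjusted p = 6.04e-06) and was at 0.05 in C4 (adjusted p = 0.245).

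Most tested genes of purine synthesis, the methionine cycle and transsulfuration, which use one-carbon units or serine, were lower in C4. Of the 6 purine synthesis genes, 5 fell and none rose, with a median of -0.20, where 28.0% of all tested genes were called lower and 28.2% higher, and GART, PPAT, ADSL and ATIC lay between -0.23 and -0.20. In B3 PAICS rose by 0.14 ± 0.02 and PPAT fell by 0.11 ± 0.02, and the other 4 were not called. Of 7 methionine cycle and transsulfuration genes, 6 fell and 1 rose in C4, with a median of -0.24, so that all 7 were called against 56.2% of all tested genes. The transsulfuration genes CBS and CTH, whose enzymes join serine to homocysteine and release cysteine, changed by -0.68 ± 0.04 and -0.60 ± 0.03 (adjusted p = 2.12e-12 and 6.05e-13), and AHCY and MTRR by -0.29 ± 0.03 and -0.24 ± 0.03. CBS has a near-identical annotated copy in this genome build, so its value is uncertain. In B3, CTH rose by 0.12 ± 0.03 and CBS fell by 0.12 ± 0.04. The B3 call of CBS was lost at the same library totals and without WT replicate 2 or B3 replicate 1 or 3.

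Serine and glycine transport genes were mixed, with 2 higher and 5 lower of 10 in C4 and 4 higher and 5 lower in B3. Over all tested genes the shares were 28.2% higher and 28.0% lower in C4, and 23.2% and 24.6% in B3. The glycine transporter gene SLC6A9 and SLC1A5 each fell by 0.66 in C4 (± 0.03 and ± 0.02, adjusted p = 1.39e-15 and 3.79e-17). SLC6A9 rose by 0.22 ± 0.03 in B3. The 2 transport genes called higher in C4 were SFXN3, by 0.30 ± 0.02, and SLC1A4, by 0.23 ± 0.03. In B3, SFXN3 rose by 0.10 ± 0.02 and SLC1A4 fell by 0.12 ± 0.03. The neutral amino acid transporter gene SLC38A1 fell in both lines, by 0.60 ± 0.02 in B3 and 0.50 ± 0.02 in C4. In B3 its 29 neighbours within 2.5 Mb had a median of -0.12, with 19 called lower and none higher, and that part was not tested. Of 7 glycine breakdown genes tested, 2 were called higher in C4, a share close to the 28.2% of all tested genes, and none lower. GLDC, the decarboxylase of the glycine cleavage system, rose by 0.29 ± 0.05 in C4 (adjusted p = 4.95e-05) and fell by 0.17 ± 0.05 in B3 (adjusted p = 0.009). The serine racemase gene SRR rose by 0.25 ± 0.04 in C4. The B3 call of GLDC was lost without B3 replicate 3.

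Other proline genes were not lower as a group in C4. Of 5 tested, 3 rose and 2 fell, with a median of 0.16, where 28.2% of all tested genes were called higher and 28.0% lower. The proline-catabolic gene ALDH4A1 rose by 0.38 ± 0.03 and the ornithine aminotransferase gene OAT by 0.34 ± 0.02, and ALDH18A1, which acts just before the reductases, by 0.16 ± 0.02. PYCRL, the reductase gene also known as PYCR3, fell by 0.27 ± 0.04 in C4 and rose by 0.15 ± 0.04 in B3. The genes around PYCRL were not examined, so the part of its region in these changes was not tested. PYCR1 thus fell while the enzyme one step upstream rose.

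Amino acid stress genes accompanied the enzymes in C4. Of 11 such factors and effectors, 10 fell and none rose in C4, with a median of -0.86, and in B3 1 rose and 6 fell, with a median of -0.06. Over all tested genes 28.0% were called lower in C4, and 24.6% lower and 23.2% higher in B3. ATF4 itself fell by 1.01 ± 0.03 in C4 and by 0.17 ± 0.03 in B3. ASNS, the asparagine synthetase gene, changed by -1.64 ± 0.03 and -0.08 ± 0.03 in the 2 lines, and CHAC1, a glutathione-degrading enzyme gene, by -2.25 ± 0.03 and by -0.01. The transcription factor gene DDIT3 fell by 1.39 ± 0.04 in C4 and fell by 0.70 ± 0.04 in B3. In B3 the 84 tested genes within 2.5 Mb of DDIT3 had a median of -0.14, with 55 called lower and 4 higher. Their median in C4 was 0.045, and the part of this region in the DDIT3 values was not tested. The pseudokinase gene TRIB3 fell by 1.51 ± 0.03 in C4 and fell by 0.35 ± 0.03 in B3. The B3 call of ASNS was lost at the same library totals and without WT replicate 2 or 3 or B3 replicate 1 or 2. The members and these genes were grouped with earlier results of these data known, so their shared direction is a description.

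**Figure D4:**
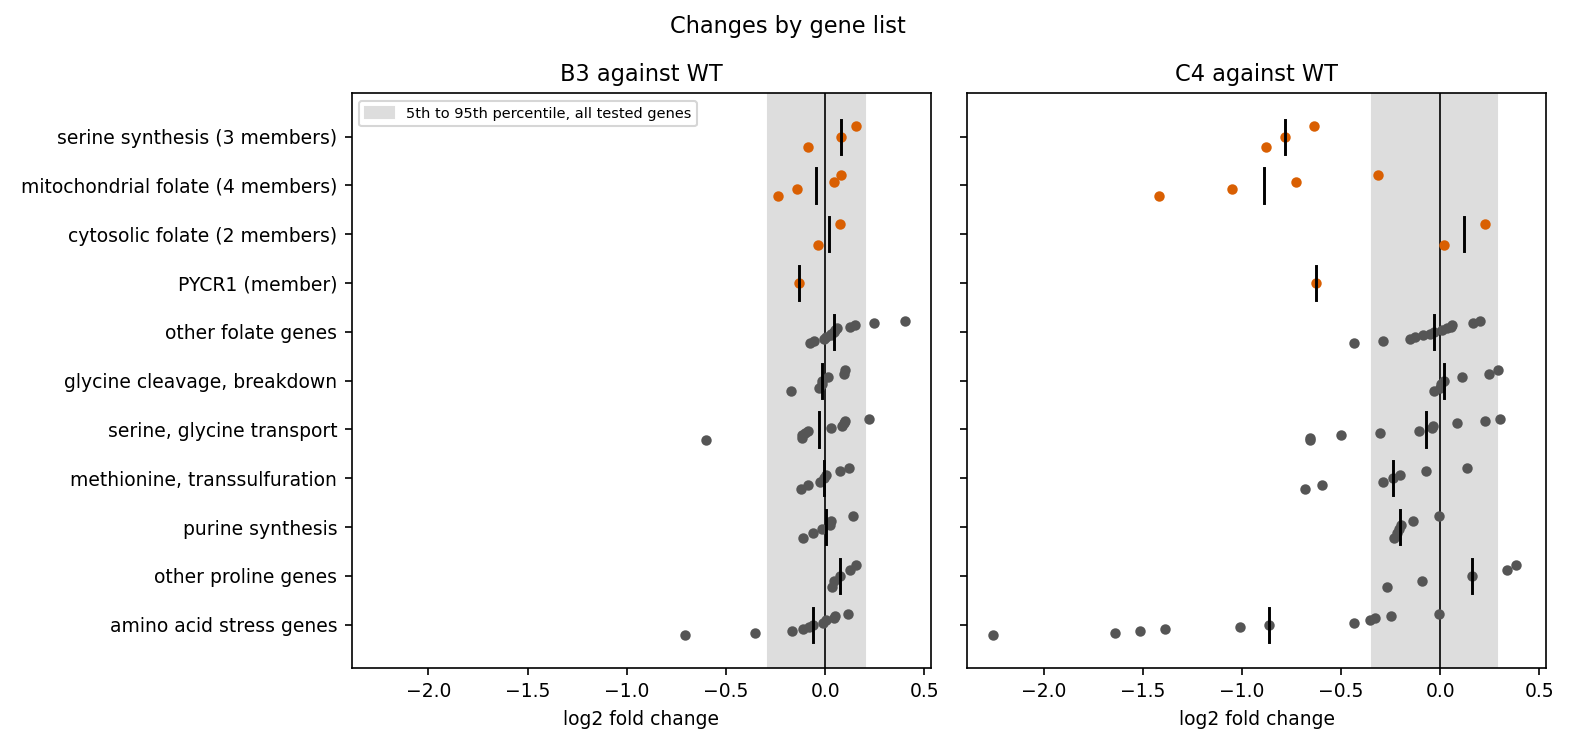
Log2 fold changes (horizontal axes) of the 10 enzymes (orange) and of genes of related lists (grey) in B3 against WT and C4 against WT. Points are genes, vertical strokes list medians and the shaded band runs from the 5th to the 95th percentile of all tested genes. In C4 the serine, PYCR1 and amino acid stress medians, and that of the mitochondrial folate enzymes, lie left of the band, and the other medians lie within it.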

How the data were processed

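RNA of 9 libraries was analysed from a table of log2 values that the authors deposited, with 1 column per library, scaled between libraries; the transform is not named. Build hg38, STAR (2.7.3a), DESeq2 and Subread (1.6.3) are named, per the submitters' processing notes; their roles, the strand setting and the annotation are not given in the sources used here. The small spread of low values resembles a regularized logarithm, which understates changes of weak genes. Whole reads could not be recovered, so no count test was run. Values were used as deposited, and 16457 of 19356 genes, those whose antilog averaged 10 or more, were tested. All libraries entered 1 fit with limma 3.58.1 in R 4.3.3, with a coefficient per group, an intensity trend and two-sided tests. Adjusted p-values cover all genes tested. The fit was tested on simulated data. Ratios were compared with scipy 1.17.1 by exact permutation. The members, gene lists and motifs were chosen with earlier results of these data known. Named genes are all members, ARNT2, up to 4 called genes per list and comparison with the largest changes, and the 3 closest profiles of 5 members; ATF4, ASNS and CHAC1 are also given where that rule does not take them, and a few genes it takes, with 1 ratio, are not reported here. Alternatives were other scalings, pseudocounts, filters, fold thresholds, moderation, a replicate block, fits of the compared groups alone and leaving out each library. Positions are from GENCODE 29 (GRCh38). No label gives a batch.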

Additional observations from a re-analysis of the deposited data

Results flagged for a closer look

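The changes against WT differed between the 2 targeted lines for all 10 enzymes. This was tested by limma as C4 against B3 with adjusted p under 0.05, where 56.4% of all tested genes were called. For PHGDH, PSAT1 and PSPH the C4 value was lower than the B3 value by 0.86, 1.04 and 0.55 on the log2 scale (-0.86, -1.04 and -0.55). For the mitochondrial enzymes the differences were -0.49 for SHMT2, -0.40 for MTHFD1L, -1.10 for MTHFD2 and -1.28 for ALDH1L2, and for PYCR1 the difference was -0.50. The neighbours of PSPH and SHMT2 moved the other way between the lines, with medians of 0.185 and 0.18. The cytosolic enzymes differed least, by 0.26 for SHMT1 and -0.06 for MTHFD1, whose call was lost under 5 of 18 alternatives. PHGDH, PSAT1 and MTHFD1L were called higher than WT in B3 and lower than WT in C4, although the B3 rises of PHGDH and MTHFD1L were lost without WT replicate 1. Groups of 3 libraries are too small for a test of single outlying libraries.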

How the results depend on the processing

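Each gene was refitted under 18 alternatives. For the 10 enzymes in C4 against WT, all 180 values kept their side of the threshold, and the uncalled MTHFD1 value changed sign without C4 replicate 1 (-0.0050, adjusted p = 0.879). In each of the other comparisons none of the 180 changed direction. In B3 against WT 5 of the 180 lost their call and 1 gained it, and in C4 against B3 5 lost it, all of MTHFD1. Asking for a change of at least 0.25 left 0 of the 10 enzymes called in B3, and 0.5 also left 0; at 0.5, added after seeing the data, 5 were called in C4 against B3. Over all genes, a change of at least 0.25 left 1532 called in B3 against WT, 2496 in C4 against WT and 2681 in C4 against B3, and 0.5 left 283, 556 and 585. With equal library totals, the median change of the 10 enzymes moved from 0.0045 to 0.04 in B3 and from -0.68 to -0.65 in C4, where the median over all genes moved to 0.03 in each. The B3 calls in the other lists also moved by over 1.5 times at the same total, to 7 of the folate genes, 5 of the proline genes and 2 of the methionine and transsulfuration genes, and the last also stood at 2 without WT replicate 2 or B3 replicate 1. The same replicate numbers did not pair the libraries: deviations from group means correlated at -0.23 to 0.02 for equal numbers, and 2 of 18 best matches had their own number. With the replicate block, 8, 9 and 9 enzymes were called in the 3 comparisons, the last without MTHFD1 (adjusted p = 0.0538), and 7504, 8961 and 9017 of all genes. The depth is unknown, so no limit from counts is given.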
